A study of Arabidopsis thaliana with 16 samples.

Results

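UDP-glycosyltransferase (UGT) and beta-glucosidase (BGLU) genes were followed along the Arabidopsis thaliana root and between iron-sufficient and iron-deficient medium. They were taken as the array probe sets annotated to 1 gene whose symbol starts with UGT or BGLU and a number, with UGT72E1 and BGLU42 left out. This gave 65 probe sets for 65 genes, 46 UGT and 19 BGLU, of 22746 probe sets on the array other than controls. Of those 22746, 13513 were annotated to 1 gene. A further 4 probe sets carried such a symbol but stood for several genes and were not counted as members. The names were those of the platform annotation, and the RefSeq symbols of the TAIR10.1 assembly gave the same 65 genes.

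UGT enzymes move a sugar from a UDP-sugar onto a small molecule, such as a phenolic acid, a flavonol, a monolignol (a lignin precursor), a glucosinolate precursor or a hormone. The product is a glycoside or a glucose ester, often more soluble, stored in the vacuole and less active than its aglycone. BGLU enzymes can remove glucose again and so free the aglycone, for instance monolignols for the wall or toxic products when a cell is damaged. Substrates below are given as background where the enzyme is well characterised.

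Seedlings of ecotype Columbia grew for 5 days on standard medium, and were then moved to standard medium or to medium lacking iron salt and holding 0.3 mM Ferrozine, an iron chelator (-Fe). Roots were cut with a razor blade into zone 1 (the lowest 150 µm), zone 2 (the next 200 µm, to about the end of the meristem), zone 3 (the next 200 to 300 µm, ending below the youngest root hairs) and zone 4 (the next 1 mm). The 8 groups of zone and medium had 2 arrays each, 16 in all, and each array came from about 15 pooled roots. The treatment protocol puts harvest at 24 h after transfer for all roots, whereas the sample descriptions give 1 h for standard and 24 h for -Fe roots, so the medium comparison may also hold a difference in time. The labels do not tell whether the 2 pools of a group grew as separate cultures. The p-values cover the spread between pools only, and some of it may be technical.

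Values are array intensities on a linear scale. Where 4 values follow a zone, they are standard medium replicates 1 and 2, then -Fe medium replicates 1 and 2. Differences between groups are differences of mean log2(intensity + 7.73), with the standard error (SE), on 8 residual degrees of freedom from all 16 arrays. This log2 scale understates the change of dim probe sets. A member was called higher or lower when its p from limma, adjusted by the Benjamini-Hochberg method over every probe set tested, was under 0.05. The verbs rose and fell are used only for such calls.

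The array medians lay between 51.2 and 76.0 units, and replicate pairs correlated across probe sets at r = 0.92 to 0.97. The 3'/5' signal ratio of the ubiquitin control, a measure of RNA and amplification length, moved with the zones. It was 5.32 to 6.45 in zone 1, 3.21 to 4.79 in zone 2, 2.75 to 3.55 in zone 3 and 2.64 to 3.21 in zone 4. The actin ratio ran the other way between zones 2 and 3, with 5.54 to 7.19, 3.93 to 5.58, 6.95 to 8.51 and 6.08 to 10.2 in zones 1 to 4, while the GAPDH ratio lay between 1.40 and 2.17 on all arrays. The 25S ribosomal RNA signal was 6516 to 8609 units in zone 1 and 2953 to 5965 on the arrays of the other zones, except zone 4 standard replicate 2 at 348. Without that array 17, 29 and 14 members were called at the 3 steps between neighbouring zones described below, in place of 18, 29 and 16. The part of these controls in the zone differences was not tested. The zone labels could be checked with 6 of 29 listed marker genes. AUR1, a mitotic kinase, averaged 1008 units in zone 1, 350.4 in zone 2, 126 in zone 3 and 254 in zone 4. The summed level of EXPA7, EXPA18 and SCN1, which act in root hair cells, was 679 to 1806 units in zones 1 and 2, 8469 to 11608 in zone 3 and 3103 to 7828 in zone 4. These root hair genes were thus already high in the piece cut just below the first visible hairs. Markers of the root cap, endodermis, xylem and leaf were not analysed here by name. In such pieces, more RNA per cell and more cells of a type cannot be told apart.

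Most members with measurable signal were brighter in the older part of the root. Only probe sets brighter than the 40th percentile of the same array, in 2 or more arrays, were tested, and 41 of the 65 members met this. They were 33 of 46 UGT genes (71.7%) and 8 of 19 BGLU genes (42.1%), against 72.6% of all probe sets. Of the 41, 20 were above that percentile on all 16 arrays and 21 on fewer. The mean over the 4 arrays of a zone was highest in zone 4 for 24 of the 41, in zone 3 for 11, in zone 2 for 4 and in zone 1 for 2. On the 2 media taken apart, the highest zone was the same for 27. The zone of highest mean was not counted over all tested probe sets, so these counts have no background beside them. Members that passed the filter only through their bright zones, such as UGT84A1 and UGT84B2, could hardly have their highest mean elsewhere. The ratio of the highest to the lowest zone mean had a median of 4.89 and ran from 1.35 for UGT73B4 to 293 for UGT84A1, whose lowest zone lay below the offset.

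**Figure D1:**
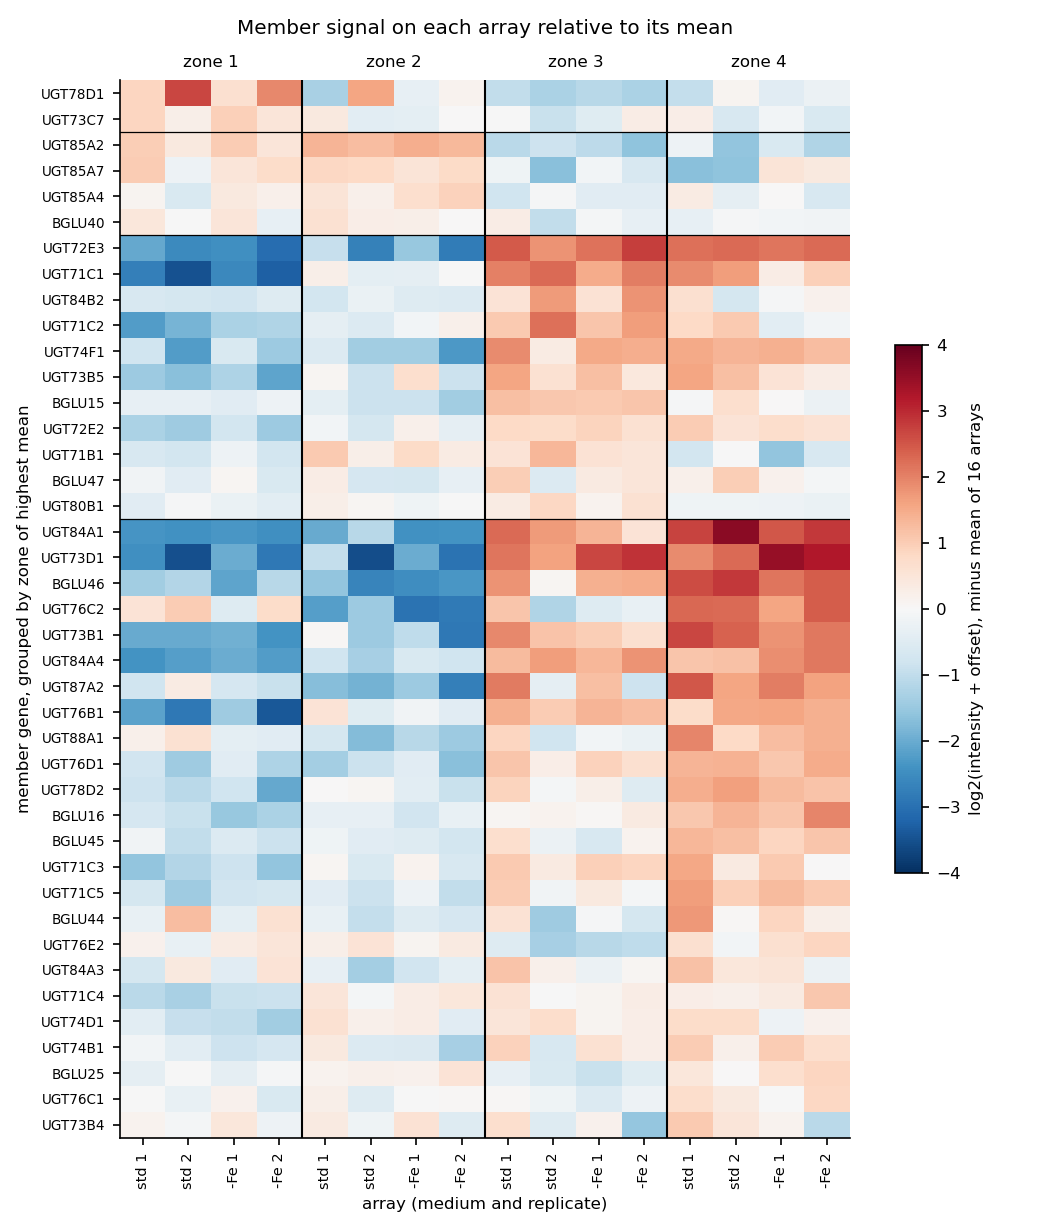
Signal of the 41 tested members on the 16 arrays, as log2(intensity + 7.73) minus the member's own mean over the arrays (colour, from -4 to 4). Columns are arrays in zone order with medium and replicate, rows are genes grouped by the zone of highest mean, with 2, 4, 11 and 24 genes from top to bottom, and within most rows the red cells lie in zones 3 and 4.

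Over the 4 zones, 32 of the 41 tested members differed on standard medium (F test), where the share over all tested probe sets was 73.7%. On -Fe medium 31 differed, against 77.4% of all tested probe sets, so that the members differed between zones about as often as other genes. 28 passed both tests, 7 passed 1 and 6 passed neither. UGT73B4, UGT73C7, UGT76C1, BGLU40, BGLU44 and BGLU47 were not called in any of the 3 steps between neighbouring zones either.

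From zone 1 to zone 2, 13 members rose and 5 fell, against 20.4% of all tested probe sets higher and 26.1% lower. From zone 2 to zone 3, 24 rose (background 29.7%) and 5 fell (background 34.9%). From zone 3 to zone 4, 10 rose (background 14.4%) and 6 fell (background 13.7%). The median difference of the tested members was 0.28, 0.92 and 0.24 on the log2 scale at the 3 steps, against -0.11, -0.07 and 0.06 over all tested probe sets. As a member that passed the filter only through its high zone had to differ, the counts were also taken with no filter over all 65. They were then 13 higher and 4 lower (background 14.1% and 18.3%), 28 and 6 (22.5% and 24.7%), and 11 and 6 (9.56% and 9.46%). With each array's median set equal, the first step gave 16 higher and 3 lower, against 25.3% and 18.1% of all tested probe sets under that scaling, which moved the median of all probe sets by 0.21 at this step. Under it the second step gave 22 higher and 5 lower (background 27.3% and 36.1%) and the third 11 and 5 (11.7% and 13.7%).

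With 2 arrays a group, fewer steps passed on each medium alone. The first step was called for 10 members on standard medium (background 20.5%) and 11 on -Fe medium (background 30.7%), and the last step for 3 (background 8.58%) and 10 (background 15.6%). The step from zone 2 to zone 3 was called for 22 members on standard medium (background 50%) and 22 on -Fe medium (background 50.6%), each time 18 higher and 4 lower. Averaged over the media, 21 of the 29 calls at that step stayed when any 1 array was left out, as did 10 of 18 at the first step and 10 of 16 at the last.

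**Figure D2:**
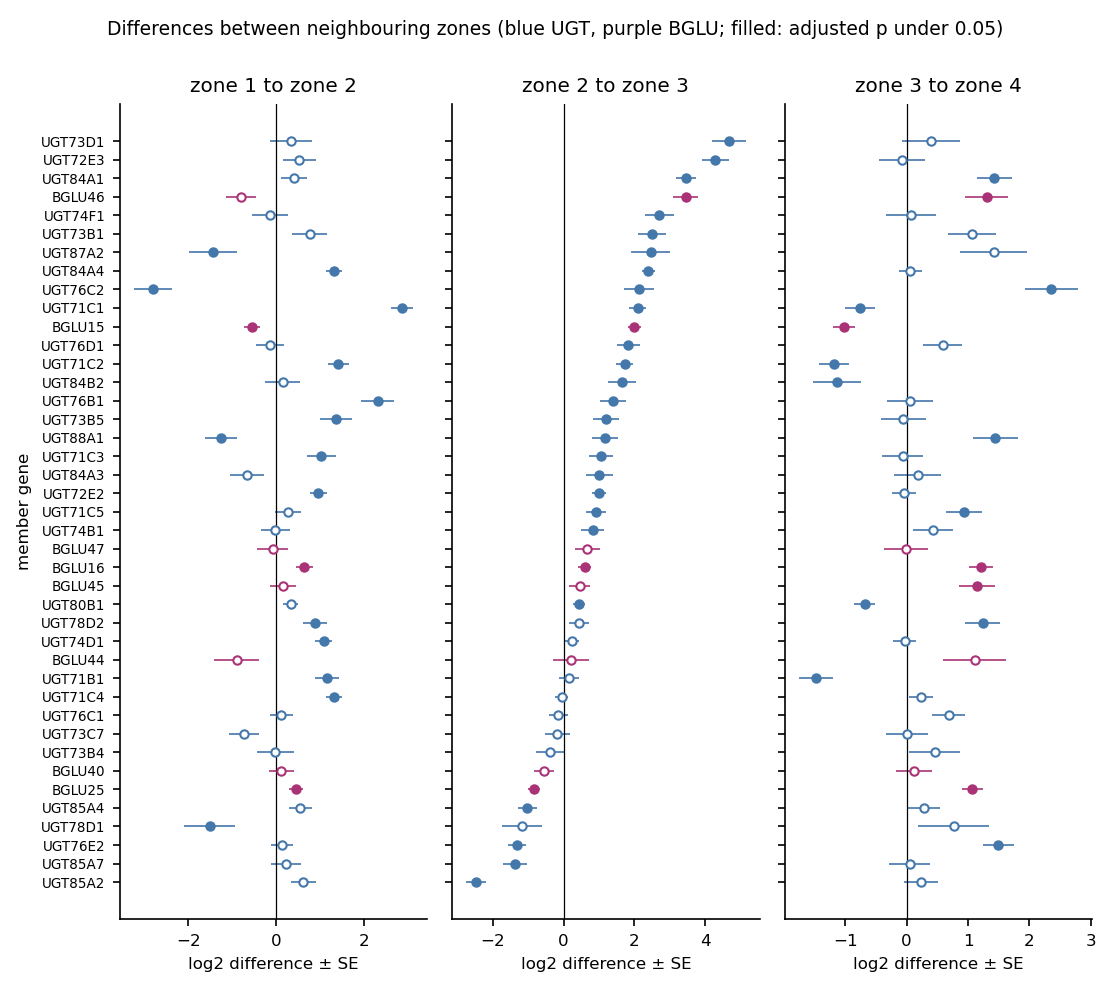
Log2 difference ± SE of each tested member (y axis) at the 3 steps between neighbouring zones, averaged over both media (4 against 4 arrays, filled points past the threshold, blue UGT, purple BGLU). The middle panel has 24 filled points right of 0 and 5 left of it, and the order of genes by that step is not kept in the other panels.

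Genes for glycosides and glucose esters of phenylpropanoids, the phenolic precursors of lignin, mostly rose between zones 2 and 3. All 7 measured members of this group passed the filter, and 6 rose at that step and none fell, where 29.7% of all tested probe sets were higher and 34.9% lower. UGT84A1 and UGT84A3 were above the 40th percentile on 8 and 2 arrays, all in zones 3 and 4, so the filter favoured their rises. With no filter the same 6 were higher at that step, against 22.5% of all 22746 probe sets. The group, with 7 members, was also the largest of the substrate groups. UGT72E3, which glucosylates monolignols, gave 26.9, 16.9, 18.8 and 9.77 units in zone 1 and 67.98, 14.3, 42.7 and 12.8 in zone 2. It gave 789, 492, 640.3 and 971 units in zone 3 and 657, 691, 631 and 681 in zone 4. The zone 3 and zone 4 arrays stood far above every array of zones 1 and 2. From zone 2 to zone 3 it rose by 4.29 ± 0.38 (adjusted p = 1.42e-06), and the zone 4 values lay within the range of zone 3.

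Its close relative UGT72E2, also a monolignol glucosyltransferase, gave 479.8, 424, 687 and 420.3 units in zone 1 and 1065, 713, 1323 and 892 in zone 2. Values of 1996, 1931, 2160.2 and 1777 units followed in zone 3 and 2345, 1694, 1871 and 1750.2 in zone 4. The gradient was shallower and had no empty end, every zone 1 array being far above the offset. UGT72E2 rose by 0.97 ± 0.20 (adjusted p = 0.00194) from zone 1 to zone 2 and rose again by 1.01 ± 0.20 (adjusted p = 0.000682) to zone 3, with no overlap of arrays at either step. The last step was -0.05 ± 0.20 (adjusted p = 0.893).

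UGT84A1, UGT84A3 and UGT84A4 are neighbours in the genome and make glucose esters of hydroxycinnamic acids. UGT84A1 gave 1.49, 1.05, 1.6 and 0.79 units in zone 1 and 4.02, 14.00, 1.04 and 1.24 in zone 2. In zone 3 it gave 220.3, 144, 114 and 61.4 units, and in zone 4 300.0, 561, 255 and 325. All 4 arrays of zone 1 and all but 1 of zone 2 lay under the offset of 7.73 units, so the lower end is background. It rose by 3.46 ± 0.29 (adjusted p = 1.01e-06) from zone 2 to zone 3 and rose by 1.43 ± 0.29 (adjusted p = 0.00317) from zone 3 to zone 4, without overlap.

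UGT84A4 gave 35.5, 41.5, 49.7 and 40.5 units in zone 1 and 124, 82.1, 141 and 122 in zone 2. It gave 536, 707, 558 and 778 units in zone 3 and 486, 506, 820.1 and 969 in zone 4. No array of zone 2 overlapped zone 1 or zone 3. UGT84A4 rose by 1.32 ± 0.18 (adjusted p = 0.000213) at the first step and by 2.39 ± 0.18 (adjusted p = 7.26e-07) at the second, and differed by 0.06 ± 0.18 (adjusted p = 0.841) at the third. UGT84A3 was dim, with zone means of 17.8 ± 10.4, 8.1 ± 4.73, 25.04 ± 15.1 and 28.98 ± 14.3 units (SD, n = 4), and rose by 1.01 ± 0.39 (adjusted p = 0.0355) from zone 2 to zone 3. That call was lost without any 1 of 6 arrays of those zones (adjusted p up to 0.144).

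The 2 glucosidases of the group, BGLU45 and BGLU46, release monolignols from their glucosides. BGLU46 gave 37.7, 45.00, 19.6 and 47.04 units in zone 1 and 32.5, 11.51, 13.7 and 16.04 in zone 2. Zone 3 gave 404, 119, 314 and 327 units and zone 4 726, 836, 522 and 632. Zone 3 was above all of zones 1 and 2, and zone 4 above all of zone 3. It rose by 3.45 ± 0.35 (adjusted p = 3.5e-06) from zone 2 to zone 3. At the next step it rose by 1.31 ± 0.35 (adjusted p = 0.0149), a call lost without zone 3 standard replicate 2 (0.88, adjusted p = 0.0541) or zone 4 -Fe replicate 2 (1.24, adjusted p = 0.0538).

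BGLU45, the gene next to BGLU46, averaged 11.49 ± 5.13, 13.4 ± 3.49, 22.8 ± 12.1 and 56.2 ± 8.09 units in zones 1 to 4 (SD, n = 4). It differed by 0.46 ± 0.29 (adjusted p = 0.186) from zone 2 to zone 3 and rose by 1.14 ± 0.29 (adjusted p = 0.0119) from zone 3 to zone 4, where the arrays did not overlap. Without zone 3 -Fe replicate 1 the last value was 0.95 (adjusted p = 0.0519). BGLU45 was above the 40th percentile on 4 arrays and had its highest values in zone 4, so the filter favoured that rise. With no filter it was 1.14 ± 0.29 (adjusted p = 0.0149). Glucosyltransferase and glucosidase genes of the monolignols thus both had their highest means in the 2 older zones.

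Among 71 genes of related pathways listed for comparison, 6 could be read by name. HCT, an acyltransferase on the route to monolignols, averaged 635, 580.1, 4484 and 5152 units in zones 1 to 4 and rose by 2.94 ± 0.19 (adjusted p = 3.81e-07) from zone 2 to zone 3. F6H1, the hydroxylase that leads to the coumarin scopoletin, averaged 7.77, 39.9, 979.5 and 3215 units and rose by 4.67 ± 0.64 (adjusted p = 3.84e-05) at the same step. These were the 2 measured genes of 12 in the general phenylpropanoid list, and both rose there. Genes of monolignol synthesis proper, glucosinolate synthesis and UDP-sugar supply were not analysed here by name.

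**Figure D3:**
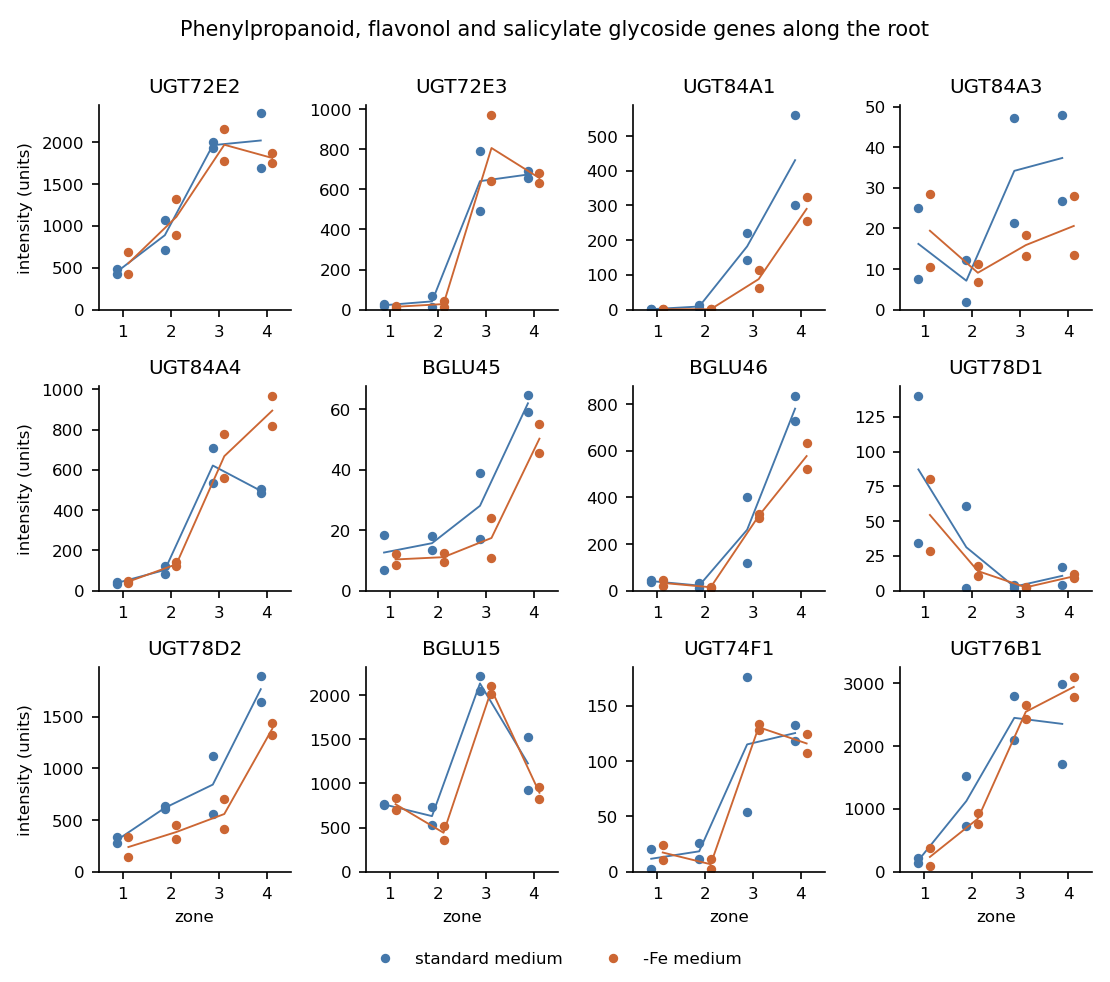
Intensity on a linear scale (y axis, from 0) in zones 1 to 4 (x axis) for 12 members that act on phenylpropanoids, flavonols and salicylate or related compounds. Points are single arrays, 2 per zone and medium (blue standard, orange -Fe), and lines join their means. UGT72E3, UGT84A1 and BGLU46 are near 0 in zones 1 and 2, whereas UGT78D1 is highest in zone 1 and BGLU15 has its highest values in zone 3.

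All 3 measured genes for glucosides of salicylate, other benzoates and related defence signals rose between zones 2 and 3 (background 29.7%). UGT74F1 and UGT76D1 were above the 40th percentile on 8 and 9 arrays, only or mostly in zones 3 and 4, so the filter favoured their rises. With no filter all 3 were higher at this step as well (background 22.5%). UGT76B1, which conjugates salicylate, isoleucic acid and N-hydroxypipecolate, gave 226, 137, 382 and 90.8 units in zone 1 and 1516, 734, 936 and 753 in zone 2. In zone 3 the values were 2802, 2094, 2652 and 2438 units, and in zone 4 1712, 2992, 3102 and 2778. Zones 1, 2 and 3 did not overlap, while zones 3 and 4 did. UGT76B1 rose by 2.32 ± 0.37 (adjusted p = 0.000476) at the first step and by 1.39 ± 0.37 (adjusted p = 0.00538) at the second.

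UGT74F1, a salicylate glucosyltransferase, gave 20.8, 2.76, 24.5 and 10.3 units in zone 1 and 25.7, 11.3, 11.3 and 2.3 in zone 2. It gave 176, 54.2, 134 and 128 units in zone 3 and 132, 119, 124 and 108 in zone 4. The zone 3 values on standard medium were far apart, yet the lower was still above every array of zone 2. It rose by 2.70 ± 0.40 (adjusted p = 7.72e-05) at this step and differed by -0.13 ± 0.40 (adjusted p = 0.818) at the first. UGT76D1, which glucosylates dihydroxybenzoates, averaged 17.2 ± 7.74, 15.5 ± 8.57, 72.4 ± 19.7 and 111 ± 13.6 units (SD, n = 4) and rose by 1.83 ± 0.32 (adjusted p = 0.000272) from zone 2 to zone 3.

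Flavonol and anthocyanin glycosyltransferases did not share 1 pattern. UGT78D2, the flavonoid 3-O-glucosyltransferase, gave 333, 279, 339 and 140.4 units in zone 1 and 603, 633, 449 and 321 in zone 2. It gave 1123, 564, 701 and 417 units in zone 3 and 1642, 1891, 1441 and 1327 in zone 4. The zone 4 arrays were above all others. From zone 3 to zone 4 it rose by 1.24 ± 0.28 (adjusted p = 0.00615). From zone 1 to zone 2 it rose by 0.89 ± 0.28 (adjusted p = 0.0205), but arrays overlapped there and the call was lost without replicate 2 of zone 1 on either medium (0.83 and 0.58) or replicate 1 of zone 2 on -Fe (0.77, adjusted p up to 0.0958).

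UGT78D1, the flavonol 3-O-rhamnosyltransferase, ran the other way. It gave 34.3, 140.2, 28.7 and 80.3 units in zone 1 and 1.7, 60.8, 10.7 and 17.6 in zone 2. Values of 3.94, 1.87, 2.99 and 1.86 units followed in zone 3 and 4.21, 17.2, 8.99 and 11.7 in zone 4. The highest values were in zone 1, but replicates differed several-fold and zones 1 and 2 overlapped. It fell by 1.51 ± 0.58 (adjusted p = 0.0465) from zone 1 to zone 2, a call that was lost without any 1 of 13 arrays (adjusted p up to 0.214). With no filter this call was lost too (adjusted p = 0.0572). UGT78D3, a flavonol arabinosyltransferase, did not pass the filter and reached at most 15.2 units.

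BGLU15, which removes glucose from flavonol bisglycosides, had its highest values in zone 3. It gave 767, 758, 697 and 832 units in zone 1 and 728, 532, 523 and 361 in zone 2. It gave 2222, 2043, 2014 and 2107 units in zone 3 and 925, 1529, 964 and 824 in zone 4. Every array of zone 3 was above every array of the other zones. From zone 2 to zone 3 it rose by 1.99 ± 0.18 (adjusted p = 1.74e-06) and from zone 3 to zone 4 it fell by 1.02 ± 0.18 (adjusted p = 0.00157). At the first step it fell by 0.54 ± 0.18 (adjusted p = 0.0268), which was lost without any 1 of 5 arrays (adjusted p up to 0.114). DFR, the 1 measured gene of the 10 in the flavonoid synthesis list, averaged 18.3, 16.1, 27.3 and 22.6 units in zones 1 to 4 and was not called at any step.

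Genes that conjugate hormones were spread over different patterns. UGT76C2, which N-glucosylates cytokinins, gave 132, 186, 59.98 and 154 units in zone 1 and 13.2, 27.3, 4.7 and 5.84 in zone 2. It gave 200.3, 34.5, 59.2 and 70.6 units in zone 3 and 464, 453, 278 and 507 in zone 4. It was thus lowest in the upper meristem piece and highest in zone 4, and neighbouring zones did not overlap at any of the 3 steps. UGT76C2 fell by 2.80 ± 0.43 (adjusted p = 0.000386) at the first step, rose by 2.13 ± 0.43 (adjusted p = 0.000831) at the second and by 2.36 ± 0.43 (adjusted p = 0.00184) at the third.

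The adjacent gene UGT76C1, with the same activity on cytokinins, averaged 36.7 ± 10.03, 40.5 ± 9.58, 35.5 ± 7.33 and 62.6 ± 17.3 units (SD, n = 4) in zones 1 to 4. None of its steps was called, the largest being 0.68 ± 0.27 (adjusted p = 0.0747) from zone 3 to zone 4. UGT74D1, an auxin glucosyltransferase, averaged 625 ± 180.2, 1349 ± 381, 1554 ± 288 and 1555 ± 470.1 units and rose by 1.095 ± 0.19 (adjusted p = 0.000839) from zone 1 to zone 2, with 0.23 ± 0.19 (adjusted p = 0.309) and -0.03 ± 0.19 (adjusted p = 0.923) at the later steps.

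UGT71C5, which glucosylates abscisic acid, gave zone means of 90.6 ± 21.03, 112 ± 30.02, 225 ± 92.97 and 423 ± 103 units (SD, n = 4). It rose by 0.92 ± 0.29 (adjusted p = 0.0149) from zone 2 to zone 3 and rose by 0.94 ± 0.29 (adjusted p = 0.0302) from zone 3 to zone 4. Both calls were fragile, being lost without any 1 of 4 and 5 arrays (adjusted p up to 0.0700 and 0.127). UGT71B6, also an abscisic acid glucosyltransferase, and BGLU33, a vacuolar glucosidase of its glucose ester, reached at most 4.52 and 9.99 units and did not pass the filter.

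Of the glucosinolate genes, UGT74B1, the S-glucosyltransferase of their core synthesis, averaged 518 ± 117, 554 ± 284, 966 ± 394 and 1241 ± 309 units (SD, n = 4). It rose by 0.82 ± 0.33 (adjusted p = 0.0454) from zone 2 to zone 3, with overlapping arrays, and the call was lost without any 1 of 11 arrays (adjusted p up to 0.217). With no filter this call was lost too (adjusted p = 0.0573). BGLU28, which breaks glucosinolates down under sulfur shortage, reached at most 23.5 units and did not pass the filter. PYK10, the main beta-glucosidase of root ER bodies (which was no member, as its symbol here is PYK10), averaged 3652, 5763, 6775 and 8224 units in zones 1 to 4 and rose by 0.65 ± 0.12 (adjusted p = 0.00134) from zone 1 to zone 2. NAI2, needed to form ER bodies, rose by 1.15 ± 0.16 (adjusted p = 0.000246) at the same step, and their regulator NAI1 rose by 0.57 ± 0.20 (adjusted p = 0.0316). These were the 3 measured genes of 14 in that list, and all rose at the first step (background 20.4%). UGT80B1, a sterol glucosyltransferase, averaged 184 ± 24.05, 234 ± 28.3, 324 ± 69.3 and 196 ± 7.23 units and fell by 0.68 ± 0.17 (adjusted p = 0.0105) from zone 3 to zone 4. From zone 2 to zone 3 it rose, a call lost without any 1 of 6 arrays (adjusted p up to 0.149). With no filter that rise was 0.44 ± 0.17 (adjusted p = 0.0467).

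The largest step of any member belonged to UGT73D1. It gave 10.9, 1.15, 18.02 and 6.29 units in zone 1 and 45.01, 0.984, 18.03 and 5.41 in zone 2. It gave 434, 299.8, 635 and 744 units in zone 3 and 371, 479, 1136 and 929 in zone 4. Zones 1 and 2 overlapped and held single values near 1 unit, and all 8 arrays of zones 3 and 4 were far above them. It rose by 4.67 ± 0.47 (adjusted p = 3.38e-06) from zone 2 to zone 3. UGT73C7, the gene beside it, averaged 30.4 ± 8.36, 15.4 ± 6.27, 13.3 ± 7.39 and 13.1 ± 6.47 units (SD, n = 4) and was not called at any step, with -0.17 ± 0.34 (adjusted p = 0.677) between zones 2 and 3.

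UGT71C1 and UGT71C2, also neighbours, moved together. UGT71C1, which acts on lignans and flavonoids, gave 83.4, 46.3, 91.9 and 54.4 units in zone 1 and 705, 448, 456 and 587 in zone 2. Zone 3 gave 2403, 2906, 1686 and 2495 units and zone 4 2202, 1904, 726 and 1148. Zones 1, 2 and 3 did not overlap. It rose by 2.88 ± 0.25 (adjusted p = 3.22e-05) at the first step and by 2.09 ± 0.25 (adjusted p = 1.1e-05) at the second. From zone 3 to zone 4 it fell by 0.76 ± 0.25 (adjusted p = 0.0353), where arrays overlapped and the loss of any 1 of 5 arrays ended the call (adjusted p up to 0.132).

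UGT71C2 gave 36.2, 49.5, 77.7 and 82.5 units in zone 1 and 153, 132, 182 and 227 in zone 2. It gave 420.4, 943, 439 and 649.7 units in zone 3 and 353, 414, 147 and 185 in zone 4. Neighbouring zones did not overlap at any step. UGT71C2 rose by 1.42 ± 0.24 (adjusted p = 0.000626), then rose by 1.72 ± 0.24 (adjusted p = 4.3e-05) and then fell by 1.18 ± 0.24 (adjusted p = 0.00331) along the root. In a second run of neighbours, UGT71C4 rose by 1.32 ± 0.19 (adjusted p = 0.00028) at the first step, with -0.06 ± 0.19 (adjusted p = 0.807) at the second. Its neighbour UGT71C3 rose by 1.03 ± 0.33 (adjusted p = 0.0229) and then by 1.06 ± 0.33 (adjusted p = 0.0138), calls lost without any 1 of 4 and 3 arrays (adjusted p up to 0.0929 and 0.0619).

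The tested UGT85A genes ran against most members. UGT85A2 gave 1070.1, 707, 1096 and 757 units in zone 1 and 1409, 1283, 1489 and 1343 in zone 2. In zones 3 and 4 it gave 255, 302, 261 and 171 and 468, 177, 352 and 231 units. Every array of the 2 meristem pieces was above every array of the older zones. It fell by 2.47 ± 0.28 (adjusted p = 7.91e-06) from zone 2 to zone 3. UGT85A4 fell by 1.03 ± 0.26 (adjusted p = 0.00399) and UGT85A7 fell by 1.37 ± 0.34 (adjusted p = 0.00336) at the same step, from zone 2 means of 75.7 ± 17.1 and 53.4 ± 5.72 units to zone 3 means of 33.2 ± 8.63 and 17.8 ± 10.4 (SD, n = 4). All 3 tested UGT85A genes therefore fell there (background 34.9%), and these calls stayed when any single array was left out. UGT85A3 and UGT85A5 did not pass the filter. With no filter they differed at this step by 0.22 ± 0.27 (adjusted p = 0.54) and -0.71 ± 0.31 (adjusted p = 0.076), neither past the threshold.

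**Figure D4:**
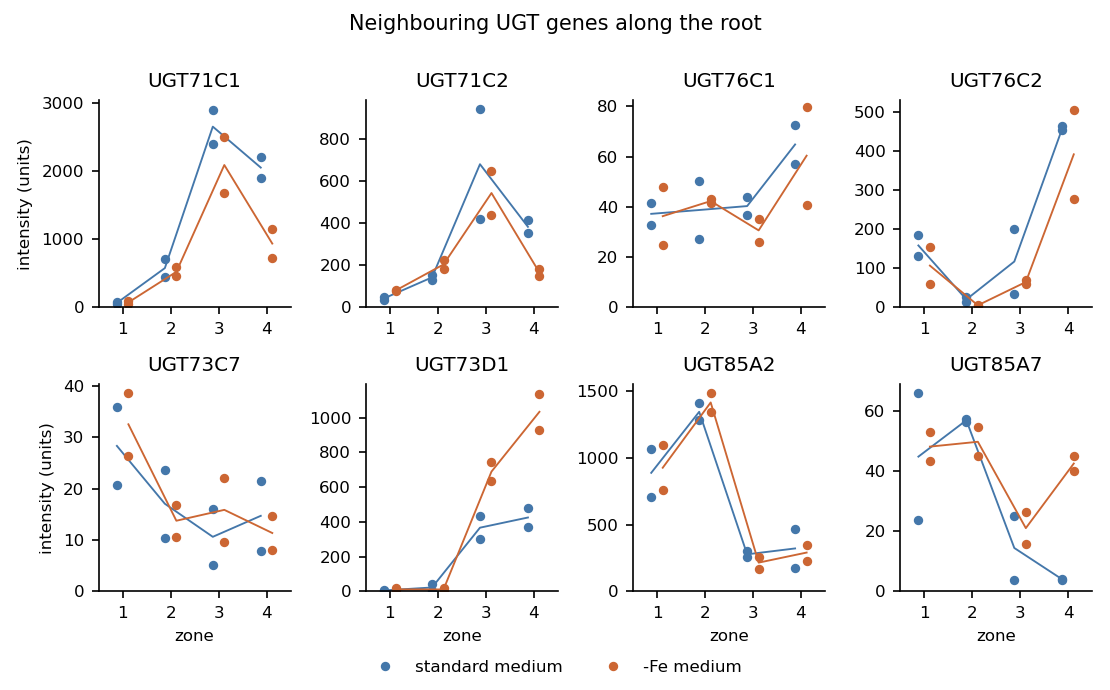
Intensity on a linear scale (y axis, from 0) in zones 1 to 4 (x axis) for 4 sets of genes that lie side by side in the genome or in 1 run of members. Points are single arrays (blue standard medium, orange -Fe) and lines join the means of 2. UGT71C1 and UGT71C2 both have their highest mean in zone 3, UGT76C2 is lowest in zone 2 while UGT76C1 stays between 24.8 and 79.8 units, and UGT85A2 and UGT85A7 are lower in zone 3 than in zone 2.

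Of the 65 members, 35 lie in 15 runs of neighbouring genes, and 8 runs had at least 2 tested members. Probes for near-identical copies can bind each other's RNA, and how far that holds for these probe sets was not tested, so values within a run are uncertain as to the copy.

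UGT73B1 averaged 39.4 ± 6.42, 92.9 ± 74.8, 467 ± 194 and 954 ± 252 units (SD, n = 4) and rose by 2.50 ± 0.39 (adjusted p = 0.000107) from zone 2 to zone 3. UGT73B5, needed for full resistance to a bacterial leaf pathogen, averaged 55.7 ± 15.5, 171 ± 95.5, 379 ± 144 and 369 ± 150.4 units and rose by 1.38 ± 0.36 (adjusted p = 0.00828) from zone 1 to zone 2. Beside it in the genome, UGT73B4 averaged 521 ± 109.9, 531 ± 178, 455 ± 265 and 616 ± 330.0 units and had the flattest zone profile of the tested members. UGT87A2, known for a role in flowering time, averaged 238 ± 112, 82.00 ± 30.1, 635 ± 554 and 1290.4 ± 405 units and rose by 2.46 ± 0.54 (adjusted p = 0.00151) from zone 2 to zone 3.

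UGT88A1 averaged 61.98 ± 24.9, 21.4 ± 9.04, 61.2 ± 35.8 and 171 ± 61.3 units (SD, n = 4). It fell by 1.24 ± 0.36 (adjusted p = 0.0142) at the first step, which was lost without zone 1 standard replicate 2 (-1.15, adjusted p = 0.0505) or zone 2 standard replicate 2 (-0.99, adjusted p = 0.0573). UGT87A2 fell by 1.44 ± 0.54 (adjusted p = 0.0452) at that step, lost without any 1 of 10 arrays (adjusted p up to 0.161) and also with no filter (adjusted p = 0.0584). UGT76E2 was instead lowest in zone 3. It averaged 50.3 ± 12.7, 55.6 ± 8.16, 18.3 ± 6.77 and 66.03 ± 19.4 units, and it fell by 1.31 ± 0.25 (adjusted p = 0.000525) and then rose by 1.49 ± 0.25 (adjusted p = 0.00104), with no overlap at either step.

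UGT71B1 was high in zones 2 and 3, with zone means of 116 ± 23.8, 273 ± 75.2, 303 ± 96.01 and 108 ± 48.4 units (SD, n = 4). It rose by 1.16 ± 0.28 (adjusted p = 0.00507) at the first step and fell by 1.48 ± 0.28 (adjusted p = 0.00228) at the last. UGT84B2 was dim, with zone means of 1.54 ± 0.673, 2.64 ± 1.4, 27.6 ± 15.8 and 7.98 ± 5.85 units, and it rose by 1.66 ± 0.39 (adjusted p = 0.00245) from zone 2 to zone 3. It was above the 40th percentile on 2 arrays, and its highest values, 39.8 and 42.7 units, were in zone 3. The filter thus favoured this rise. With no filter UGT84B2 rose there by 1.66 ± 0.35 (adjusted p = 0.00141). Its later difference, where it fell by 1.13 ± 0.39 (adjusted p = 0.0477), was lost without any 1 of 13 arrays (adjusted p up to 0.187).

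Among the other BGLU genes, BGLU16 rose at every step. Its values were 454, 390.1, 248 and 296 units in zone 1 and 572, 574, 421 and 590.4 in zone 2. It gave 771, 796, 743 and 940.2 units in zone 3 and 1527, 1871, 1570.4 and 2848 in zone 4. Zone 4 stood clear of all other arrays. The 3 differences were 0.65 ± 0.19 (adjusted p = 0.0146), 0.59 ± 0.19 (adjusted p = 0.0161) and 1.22 ± 0.19 (adjusted p = 0.000708), of which the first was lost without zone 1 standard replicate 2 or zone 2 -Fe replicate 2 (0.60 and 0.53, adjusted p = 0.0521 and 0.0659). The second was lost without replicate 1 of zone 2 or replicate 2 of zone 3, both on -Fe (0.47 and 0.51, adjusted p = 0.0731 and 0.0623).

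BGLU25 averaged 733 ± 98.4, 1009 ± 147, 561 ± 91.8 and 1205 ± 285 units (SD, n = 4) in zones 1 to 4. It fell by 0.84 ± 0.17 (adjusted p = 0.000673) from zone 2 to zone 3 and rose by 1.07 ± 0.17 (adjusted p = 0.000627) from zone 3 to zone 4. BGLU25 was 1 of 9 tested members with their lowest mean in zone 3. BGLU40, BGLU44 and BGLU47 averaged between 25.8 and 35.3 units over the 16 arrays and were not called.

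The 24 members that did not pass the filter were 13 UGT and 11 BGLU genes, and 14 members of the 65 never reached 20 units on any array. The highest value of each of the 24 lay between 4.52 units (UGT71B6) and 66.3 units (UGT72B3). UGT72B3 read 66.3, 28.6, 12.9 and 12.5 units in zone 4 and at most 6.24 units on the 12 arrays of the other zones. The others besides UGT71B6, UGT72B3, UGT84B1 (described with the media below) and those given above were UGT71B5, UGT71B8, UGT73C1, UGT73C2, UGT76E1, UGT76E11, UGT76E12, BGLU19, BGLU24, BGLU27, BGLU29, BGLU31, BGLU32, BGLU36, BGLU41 and BGLU43. These probe sets gave little signal in these pieces, yet with no filter some were called at a zone step. From zone 2 to zone 3 UGT76E12 was higher (1.35 ± 0.20, adjusted p = 0.000111). So were UGT84B1 (1.30, adjusted p = 0.00161) and BGLU41 (1.07, adjusted p = 0.0045), among others. BGLU43 was lower there (-0.84, adjusted p = 0.0396). UGT71B5 was lower in zone 2 than in zone 1 (-1.08, adjusted p = 0.026). UGT72B3 was higher in zone 4 than in zone 3 (1.44, adjusted p = 0.000948).

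No tested member was called higher or lower on -Fe medium in the main fit, which did not pair the arrays by replicate number. The fit with such pairing is given below. Averaged over the 4 zones (8 against 8 arrays), 0 of 41 passed, against 1.41% of all tested probe sets, and 6 had an unadjusted p under 0.05. In zones 1 to 4 taken singly (2 against 2 arrays), 0 passed each time, where the backgrounds were 0.109%, 0.103%, 0.291% and 0.927%, and 2, 1, 1 and 6 had an unadjusted p under 0.05. The test of whether the medium difference itself varied between zones also called 0 (background 0.121%), with 2 at an unadjusted p under 0.05 and a lowest adjusted p of 0.932 for UGT71C2.

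The intervals show what size of difference the arrays allowed. For 33 of the 41 members, the 95% interval of the averaged difference lay within 1 log2 unit of 0. In the single zones this held for 10, 12, 10 and 7 members, so that in a single zone most intervals reached 1 log2 unit or more. The averaged differences ran from -0.67 to 0.67, 12 above 0 and 29 below, with a median of -0.12 against -0.06 over all tested probe sets. With array medians set equal, which moved the median of all probe sets by 0.13, the median of the members was 0.01.

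UGT74D1, the auxin glucosyltransferase, came closest to the threshold in the averaged contrast. In zone 1 it gave 870.2 and 603 units on standard medium against 589 and 437 on -Fe, and in zone 2 1768 and 1353 against 1431 and 845. Zone 3 held 1646 and 1910.5 against 1247 and 1413, and zone 4 1953 and 1945 against 1016 and 1307. The -Fe mean was lower in each of the 4 zones, and the arrays of the 2 media overlapped in zone 2. The averaged difference was -0.54 ± 0.14 (adjusted p = 0.0826), with a 95% interval of -0.84 to -0.25.

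The same-numbered arrays of the 2 media deviated together, and with the replicate number as a block fitted per zone 2 members were called lower on -Fe, UGT74D1 (adjusted p = 0.0167) and UGT73B1 (-0.67, adjusted p = 0.0285). Without a block UGT73B1 differed by -0.67 ± 0.28 (adjusted p = 0.283). With 1 block term for the replicate number over all zones, 0 were called. Leaving out zone 2 -Fe replicate 1 also took UGT74D1 past the threshold (-0.64, adjusted p = 0.0447).

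The other averaged differences with the smallest p did not pass either. UGT84A1 differed by -0.60 ± 0.20 (adjusted p = 0.2), UGT78D2 by -0.51 ± 0.20 (adjusted p = 0.252), UGT71C1 by -0.37 ± 0.17 (adjusted p = 0.354) and UGT76C2 by -0.59 ± 0.31 (adjusted p = 0.406). On the positive side UGT84A4 differed by 0.37 ± 0.13 (adjusted p = 0.212), UGT85A7 by 0.67 ± 0.24 (adjusted p = 0.224), UGT73D1 by 0.63 ± 0.33 (adjusted p = 0.413) and UGT71C4 by 0.22 ± 0.14 (adjusted p = 0.498). The hydroxycinnamate ester genes UGT84A1 and UGT84A4 thus had medium differences of opposite sign, neither past the threshold.

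**Figure D5:**
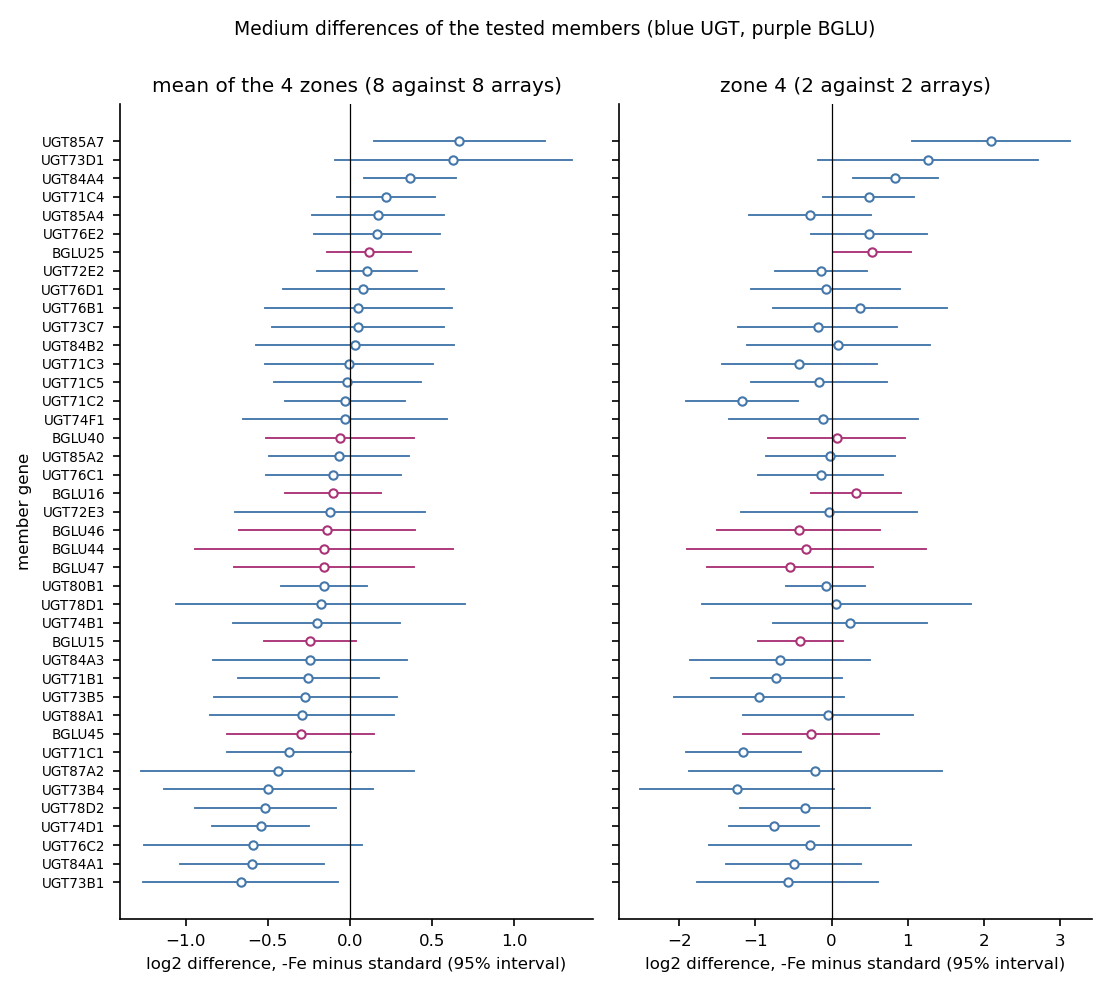
Difference between -Fe and standard medium (x axis, log2, -Fe minus standard) with its 95% interval for the 41 tested members (y axis), averaged over the zones (left) and in zone 4 alone (right), blue UGT and purple BGLU. No member passed the adjusted threshold in either panel, and UGT85A7 at 2.10 lies farthest from 0 in zone 4.

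In zone 4 the largest medium difference was that of UGT85A7. It gave 3.72 and 4.31 units on standard medium and 45.2 and 39.96 on -Fe. The 2 media were far apart there, with both standard values under the offset, whereas in zone 2 the gene read 57.4 and 56.5 against 44.97 and 54.6 units. In zone 3 it read 25.1 and 3.84 against 26.4 and 15.7, which overlap. The zone 4 difference was 2.10 ± 0.48 (adjusted p = 0.0699), with a 95% interval of 1.05 to 3.14. It passed the threshold with median centring (2.24, adjusted p = 0.0249), quantile normalization (2.12, adjusted p = 0.0273), array weights (adjusted p = 0.0379) and the replicate block (adjusted p = 0.04996). It also passed without zone 3 standard replicate 1 or 2 (adjusted p = 0.0196 and 0.0188), and over all 25 alternatives the adjusted p ran from 0.0188 to 0.276.

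The neighbours UGT71C1 and UGT71C2 were both lower on -Fe in zone 4 without passing. UGT71C1 gave 2202 and 1904 units against 726 and 1148, a difference of -1.16 ± 0.35 (adjusted p = 0.186). UGT71C2 gave 353 and 414 units against 147 and 185, a difference of -1.18 ± 0.34 (adjusted p = 0.166). In neither gene did the arrays of the 2 media overlap. In zone 1 UGT71C2 lay the other way, with 36.2 and 49.5 units on standard medium and 77.7 and 82.5 on -Fe, a difference of 0.81 ± 0.34 (adjusted p = 1). Without zone 3 standard replicate 1 or 2 the zone 4 difference of UGT71C2 passed (adjusted p = 0.0453 and 0.0463).

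UGT84B1, which glucosylates indole-3-acetic acid, gave 2.12 and 2.04 units in zone 4 on standard medium and 27.8 and 59.6 on -Fe. In zone 3 it gave 4.84 and 23.9 against 17.2 and 18.95, and in zones 1 and 2 no array exceeded 2.54 units. With no filter it was the only 1 of the 65 members called in zone 4, at 2.32 ± 0.39 (adjusted p = 0.0139), against 0.659% of all 22746 probe sets. A single array of the 16 carried it above the 40th percentile.

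The medium differences of the 5 phenylpropanoid and salicylate genes with the largest rise from zone 2 to zone 3 ran from -0.60 to 0.37, none past the threshold. UGT84A1 and UGT84A4 had the averaged values given above, with 95% intervals of -1.04 to -0.15 and 0.09 to 0.65. In zone 3 UGT84A1 gave 220.3 and 144 units on standard medium and 114 and 61.4 on -Fe, without overlap, a difference of -1.02 ± 0.41 (adjusted p = 0.684). UGT72E3 differed by -0.12 ± 0.27 (adjusted p = 0.872) averaged over the zones, BGLU46 by -0.14 ± 0.25 (adjusted p = 0.837) and UGT74F1 by -0.03 ± 0.29 (adjusted p = 0.973). Their 95% intervals were -0.70 to 0.46, -0.67 to 0.40 and -0.65 to 0.59. UGT76B1 differed by 0.05 ± 0.26 (adjusted p = 0.949), with an interval of -0.52 to 0.62. F6H1 differed by 0.67 ± 0.45 (adjusted p = 0.533) and HCT by -0.05 ± 0.14 (adjusted p = 0.904), also not called.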

How the data were processed

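RNA of root pieces was amplified in 2 cycles and hybridised to Affymetrix ATH1 arrays, per the labels' protocols. The deposited values are array intensities on a linear scale, made by the authors with MAS5, per the submitters' processing notes, and detection calls and version are not given in the sources used here. Coordinates are left out, as the files name no build, and RefSeq (TAIR10.1) served for names and neighbouring genes.

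The 64 control probe sets were left out. The log2 of each intensity was taken after adding 7.73, which is the 20th percentile over all arrays, with no further normalization, and 16505 of 22746 probe sets passed the filter. limma 3.58.1 in R 4.3.3 was fitted on all of them with 8 group means and an intensity trend in the prior, and was tested on simulated data. Adjustment was by Benjamini-Hochberg within a contrast, with a threshold of 0.05, and the number of arrays limits the precision. Groups came from the sample titles. Same-numbered standard and -Fe arrays of a zone deviated together (r = 0.37, 0.24, 0.18 and 0.26 in zones 1 to 4). Same-numbered arrays of neighbouring zones on the same medium gave r = 0.0169 to 0.383, with 5 of 6 pairs above 0.1. The main fit held no term for the replicate number. Pairing by replicate number was run only as an alternative, the replicate block.

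Alternatives were the offset, the between-array scaling, the filter, array weights, the replicate block, each medium or zone alone and leaving out each array. Members, gene lists and tests were chosen with earlier results of these data known. Named members were, per zone step, up to 6 in each direction past the threshold without overlap of arrays, the smallest p-values of the medium contrasts, and members with a listed substrate. UGT84B2, UGT71C3 and others outside these rules were named after their values were seen, to account for the members.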

Additional observations from a re-analysis of the deposited data

How the results depend on the processing

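Of the 291 recomputed counts of members past a threshold, 278 stayed within 1.5 times the main count, or at 0 where that was 0. The 291 include the medium contrasts, with a main count of 0, and counts by RefSeq symbol, which could not move. The 278 therefore say little about the zone steps. Members named through a zone step or medium contrast kept the sign of that difference in every alternative run for it. Each medium or zone alone was not in that sign check, nor were members named for other reasons. On each medium alone, the step from zone 1 to zone 2 gave 10 (standard) and 11 (-Fe) calls in place of 18, and the step from zone 3 to zone 4 gave 3 and 10 in place of 16, with 2 arrays a group in place of 4. The averaged medium contrast gave 2 calls in place of 0 with the replicate block fitted per zone, and 0 to 1 when single arrays were left out. The zone 4 medium contrast gave 1 call in place of 0 with median centring, quantile normalization, no filter, array weights or the replicate block, and 0 to 2 when single arrays were left out. The cause was not tested. Leaving out single arrays gave 12 to 18 calls from zone 1 to zone 2, 22 to 29 from zone 2 to zone 3, and 12 to 20 from zone 3 to zone 4. For the zone steps, where the replicate number paired 5 of 6 pairs at a correlation above 0.1 (0.0169 to 0.383), the replicate block gave 19, 30 and 18 calls. Apart from the medium counts given above, neither form of the block changed a count by over 1.5 times. Dim signal limits the reading, and 24 members did not pass the filter and were tested only in the alternative with no filter.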
